A study of Caenorhabditis elegans with 2 samples.

Results

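The genes rpr-1, mrpr-1 and yrn-1 encode the RNA of RNase P, the RNA of RNase MRP and a worm Y RNA. The 3 genes were taken by name from 46926 annotated genes of Caenorhabditis elegans, and all 3 have the non-coding RNA biotype in the annotation. RNase P is the ribonucleoprotein that trims the 5' leader from precursor tRNAs. RNase MRP is its relative that cleaves precursor rRNA, and Y RNAs are small cytoplasmic RNAs bound by the Ro protein. In vertebrates, RNA polymerase III transcribes the genes of all these RNAs from promoters that lie before the gene, built from a proximal sequence element and a TATA box. The element is bound by the complex SNAPc. The promoters of tRNA genes instead lie within the transcribed sequence, and most spliceosomal snRNA genes carry the element without a TATA box and are read by RNA polymerase II. In worms the largest subunit of SNAPc is SNPC-4.

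The values are ChIP-seq peak lists for SNPC-4 in whole animals, in the ce11 build. Animals of the strain YL487, whose transgene encodes SNPC-4 with GFP and FLAG at the C-terminus, were hermaphrodite young adults 60 h after release from starvation arrest in the first larval stage. According to the sample description the antibody was directed against GFP, although the label for the antibody names snpc-4 itself. Both biological replicates belonged to 1 group, so no condition was compared, and neither untagged animals nor the control were analysed here. Each list holds candidate regions with 1 summit and 1 signal value each: 30000 regions for replicate 1, for replicate 2 and for both pooled, of which the 4675 pooled regions past the irreproducible discovery rate threshold are called IDR peaks. The signal is a strength value set by the authors, and its scale is unknown here. Regions were ranked by signal within 1 list only. Fold values divide signals of the same list, and means over the replicates average such ratios. With the scale unknown, these ratios cannot be read as fold enrichment of binding. The lists hold no read depth, and no test was made on the 3 genes, because they were picked by name and the design has 1 group.

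The sequence before the genes is shown first, since the peaks lie over it. The 100 bases before the 5' end, written 5′ to 3′ on the strand of the gene, are given for mrpr-1 (chrII:7200133-7200232, plus strand) and yrn-1 (chrIV:7499408-7499507, plus strand). For comparison they are followed by those of the snRNA gene with the highest peak, W05B2.8 (chrIII:10989579-10989678, plus strand), and of a tRNA-Ile gene with a high peak, C27A2.t1 (chrII:5057521-5057620, minus strand). The sequence is that of the RefSeq assembly WBcel235, and capitals mark every match on this strand to TGTCNG, where N is any base, and to TATATA. The sequence of rpr-1 is not printed here. W05B2.8 does not stand for its whole class. It is among the 18 of 99 snRNA genes with TATATA starting 20 to 40 bp upstream, and the other 81 lack TATATA there.
mrpr-1: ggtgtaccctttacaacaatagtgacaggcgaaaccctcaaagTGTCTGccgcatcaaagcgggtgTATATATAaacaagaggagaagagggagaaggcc
yrn-1: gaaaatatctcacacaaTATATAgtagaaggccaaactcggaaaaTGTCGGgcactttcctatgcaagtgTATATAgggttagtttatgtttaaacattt
W05B2.8: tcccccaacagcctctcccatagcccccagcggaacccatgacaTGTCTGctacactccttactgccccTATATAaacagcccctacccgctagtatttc
C27A2.t1: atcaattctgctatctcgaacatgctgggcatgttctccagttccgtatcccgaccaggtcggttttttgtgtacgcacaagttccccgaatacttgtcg

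All 3 genes had an IDR peak with its summit just before the gene. A summit lay within 300 bp of the 5' end at 3 of the 3 genes. The same was true of 11.6% of all annotated genes, 9.12% of the genes of the non-coding RNA biotype, 75.8% of 99 snRNA genes and 62% of 634 tRNA genes. The exact 95% binomial interval, which covers counting error over genes only, was 66.1 to 83.8% for snRNA genes and 58.1 to 65.8% for tRNA genes. The spliced leader genes were kept out of the snRNA class. The class still holds 10 genes named smy, for the SmY RNAs that nematodes use in trans-splicing, and all 10 had an IDR peak, at ranks from 120 to 2612. Without them 65 of 89 snRNA genes (73.0%) had one. The 634 tRNA genes include mitochondrial ones, which stay in the class for peaks, ranks, widths and positions. Of the 612 nuclear tRNA genes 379 (61.9%) had a peak. The 393 tRNA genes with a peak shared 351 regions. No snRNA or tRNA gene shared a region with rpr-1, mrpr-1 or yrn-1, but the region at yrn-1 was also the nearest one to the non-coding gene F55G1.20. The plot of regions around the 3 genes shows that each peak centres on the gene start.

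**Figure D1:**
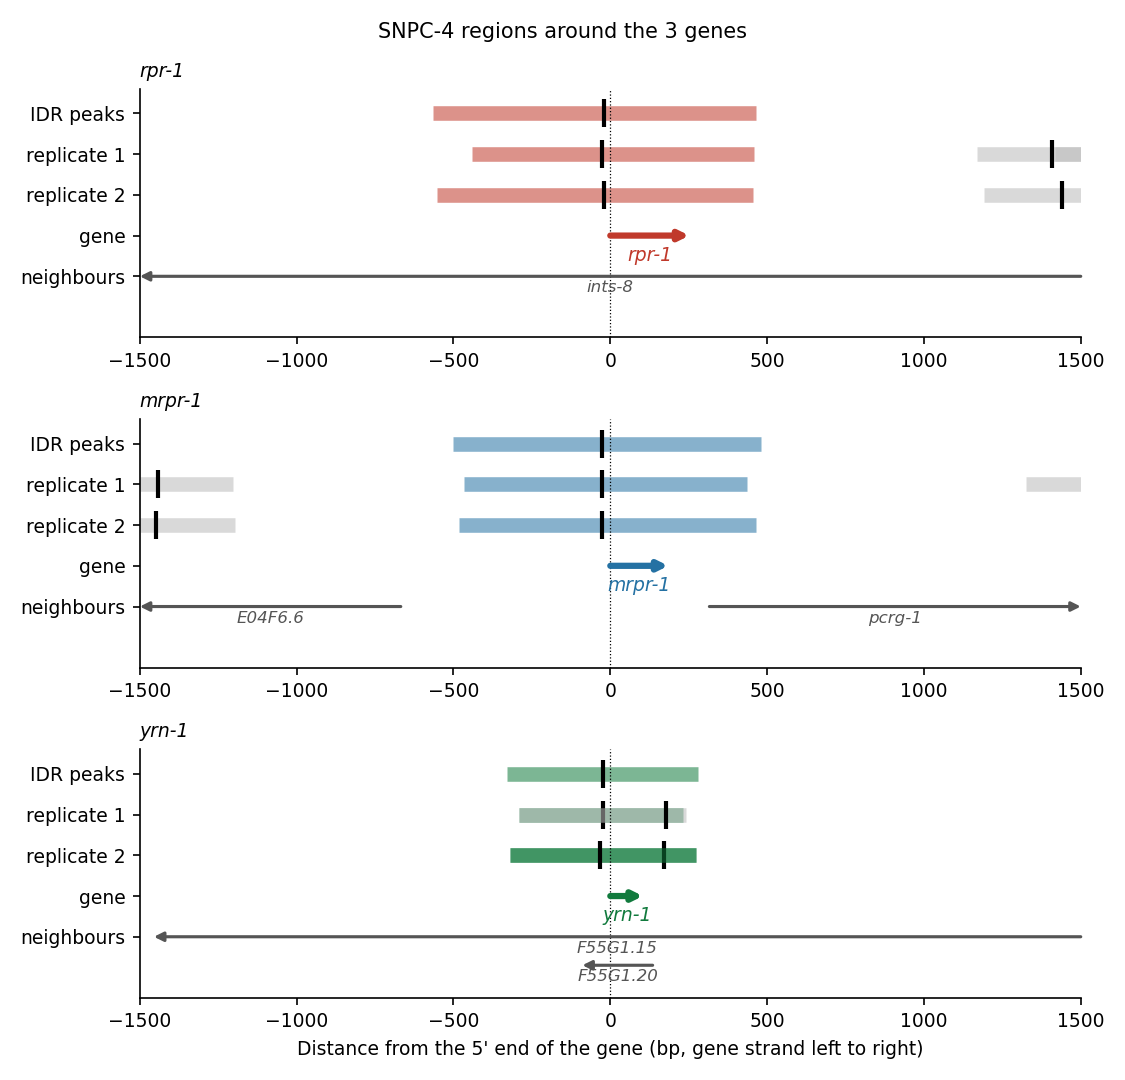
Candidate regions (bars) and their summits (black ticks) around the 3 genes, with distance from the 5' end in bp on the x axis. Coloured bars rank among the 4675 strongest of their list and grey bars below them. Bars of overlapping regions blend, as at yrn-1 in the replicates. Arrows give genes and their direction, cut at 1500 bp on each side. Summits of the IDR peaks lie 21 to 26 bp before the gene in all 3 panels, and a further summit inside the region appears only at yrn-1.

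The RNase P RNA gene rpr-1 (chromosome I, 13463955 to 13464207, plus strand, 253 bp) carried the 6th of the 4675 IDR peaks by signal. Its signal was 22917, and the summit, at 13463934, lay 21 bp before the gene. In replicate 1 the region ranked 6 of 30000 with a signal of 11201 and its summit 25 bp upstream. In replicate 2 it ranked 8 with a signal of 11827 and its summit 21 bp upstream. Set against the median of the 4675 strongest regions of the same list, the signal was 121-fold in replicate 1 and 135-fold in replicate 2 (mean 128 ± 9.97, SD, n = 2). The region was 1030 bp wide in the pooled list, 901 bp in replicate 1 and 1008 bp in replicate 2. Both replicates thus placed the summit within 4 bp of each other and put the region among the 8 strongest.

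The peak at rpr-1 stood alone in its surroundings, inside an intron of another gene. The gene lies on the opposite strand of ints-8, which encodes a subunit homologue of the Integrator complex. It sits in the intron between exons 5 and 6 of the transcript Y48G10A.4a.1 (13462739 to 13464761), and no exon of ints-8 overlapped rpr-1 or the summit. The 5' end of ints-8 was 6437 bp away from the summit and had an IDR peak of its own, at rank 2239, 14 bp upstream, with a signal of 171. Within 5 kb of rpr-1 the pooled list held 6 other regions, the strongest with a signal of 32.8 and rank 12145. The rpr-1 signal was 699-fold that value, and 726-fold and 554-fold the highest neighbour in replicates 1 and 2. No other annotated 5' end lay within 300 bp of the rpr-1 summit, and the next genes on either side were the piRNA gene 21ur-15556, which lies 3520 bp before it and also within ints-8, and ndrr-1, 6384 bp after it.

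The RNase MRP RNA gene mrpr-1 (chromosome II, 7200233 to 7200418, plus strand, 186 bp) had the second highest peak of the 3. The IDR summit, at 7200207, was 26 bp upstream, with a signal of 9292 and rank 40. In replicate 1 the region ranked 41 with a signal of 4304 and its summit 26 bp upstream. In replicate 2 it ranked 38 with a signal of 5052 and its summit 25 bp upstream. The summits of the replicates were 1 bp apart, and the ranks differed by a factor of 1.08. Relative to the median of the strongest regions the signal was 46.4-fold in replicate 1 and 57.6-fold in replicate 2 (mean 52.0 ± 7.92, SD, n = 2). The region was 983 bp wide, and 902 and 948 bp in the replicates.

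The mrpr-1 gene lies between protein-coding genes and overlaps neither. The gene pcrg-1, named for the Parkin coregulated gene, starts 130 bp after the end of mrpr-1 on the same strand. Its 5' end was 342 bp downstream of the mrpr-1 summit, and no candidate summit of the pooled list lay within 300 bp of that 5' end. On the other side the opposite-strand gene E04F6.6 starts 667 bp before mrpr-1, and no candidate summit lay within 300 bp of its 5' end either. The mrpr-1 region reached 480 bp past the mrpr-1 5' end and so covered the start of pcrg-1. The strongest of 5 other regions within 5 kb had a signal of 86.3 and rank 4734, which is outside the IDR list.

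The Y RNA gene yrn-1 (chromosome IV, 7499508 to 7499612, plus strand, 105 bp) had the weakest of the 3 peaks, at rank 194 of the 4675 IDR peaks. The IDR summit, at 7499486, was 22 bp upstream, with a signal of 1748. In replicate 1 the region ranked 221 with a signal of 810 and its summit 22 bp upstream. In replicate 2 it ranked 178 with a signal of 947 and its summit 33 bp upstream, so the summits were 11 bp apart. The signal was 8.73-fold the median of the strongest regions in replicate 1 and 10.8-fold in replicate 2 (mean 9.77 ± 1.46, SD, n = 2). The region was 611 bp wide, and 526 and 594 bp in the replicates.

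The yrn-1 peak could also be assigned to an overlapping non-coding gene. The gene F55G1.20 (7499419 to 7499643) runs on the opposite strand across yrn-1, and the IDR summit fell within its exon, 157 bp from its 5' end against 22 bp for yrn-1. Which of the overlapping genes the peak belongs to cannot be told apart from these lists. Both genes lie in the intron between exons 6 and 7 (7499386 to 7499666) of F55G1.15, an opposite-strand gene described as an otopetrin. The 5' end of F55G1.15 was 1951 bp from the summit and had no pooled candidate summit within 300 bp.

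A further summit inside the yrn-1 region differed between the replicates. In replicate 2 the region with the same start and end was listed again with a summit at 7499678, 170 bp downstream of the yrn-1 5' end, with a signal of 118 and rank 1679. That summit was 35 bp upstream of the 5' end of F55G1.20, in exon 6 of F55G1.15, and the main summit was 8.01-fold stronger. In replicate 1 the corresponding summit, at 7499687, had a signal of 5.35 and rank 28712, 152-fold under the main summit. The pooled list held 1 summit within 300 bp of yrn-1. In replicate 2, 1.87% of all regions shared their start and end with another.

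**Figure D2:**
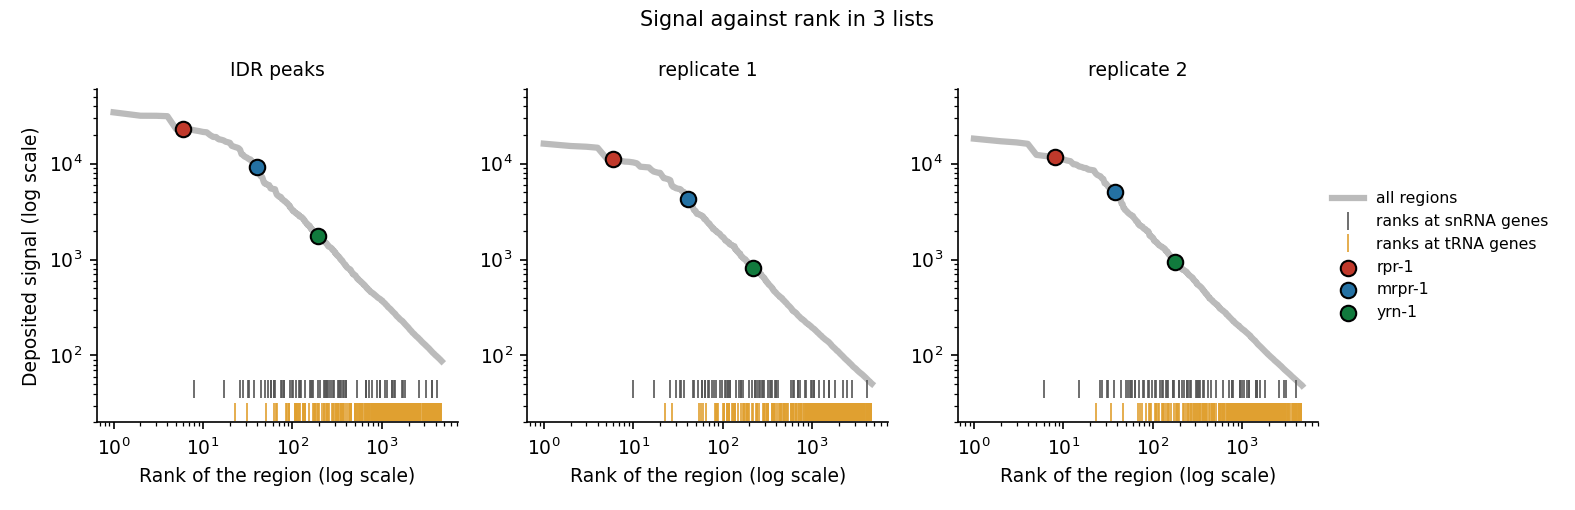
Deposited signal against rank, both on log scales, for the 4675 IDR peaks and the 4675 strongest regions of each replicate (grey line). Circles mark the 3 genes, and ticks at the bottom give the ranks at snRNA (upper row) and tRNA genes (lower row). The order rpr-1, mrpr-1, yrn-1 is the same in the 3 panels.

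The order of the 3 genes was the same in every list. By rank it ran from rpr-1 (6 and 8 in replicates 1 and 2) through mrpr-1 (41 and 38) to yrn-1 (221 and 178), and the replicate values of neighbouring genes in this order did not overlap. Signal relative to the median of the strongest regions gave the same order, also without overlap, as the plot of signal against rank shows. Region width fell in the same order in the pooled list, from 1030 bp to 983 bp and 611 bp. In replicate 1 the widths at rpr-1 and mrpr-1 were 901 and 902 bp, so these neighbours were not separated by width.

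Against snRNA genes, rpr-1 and mrpr-1 lay at the upper end and yrn-1 near the middle. Of the 75 snRNA genes with an IDR peak, 0 ranked above rpr-1, 7 above mrpr-1 and 33 above yrn-1. In replicate 2, 1 snRNA gene, W05B2.8, ranked above rpr-1, at rank 6. Of the 33 above yrn-1, 3 were smy genes. The median rank of the 75 genes was 245, with quartiles of 87.0 and 748.5. The snRNA gene next below rpr-1 was W05B2.8 (rank 8, signal 22264, summit 28 bp upstream). Around mrpr-1 were F32B5.9 (rank 37, 32 bp upstream) and Y9C9A.111 (rank 45, 38 bp upstream). Around yrn-1 were Y69A2AR.36 (rank 193, 51 bp upstream) and F56H6.14 (rank 205, 45 bp downstream). The second highest snRNA peak was at sup-6 (rank 17), whose summit was closer to the non-coding gene F58G1.11.

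Against tRNA genes all 3 ranked high. Of the 393 tRNA genes with an IDR peak, 0 ranked above rpr-1, 2 above mrpr-1 and 29 above yrn-1, that is 7.38% for the last. Their median rank was 1380, with quartiles of 777 and 2126. The 2 tRNA genes above mrpr-1 were M01E5.t1 (tRNA-Lys, rank 23) and C27A2.t1 (tRNA-Ile, rank 31). The summit at M01E5.t1 was closer to the spliced leader gene sls-2.9, so C27A2.t1, with its summit 17 bp upstream, was the highest tRNA gene that was itself closest to its summit. Next below mrpr-1 was a mitochondrial tRNA gene, WBGene00014464 (rank 51), with its summit 263 bp downstream and closer to another gene. Around yrn-1 were the tRNA-His genes B0513.t1 (rank 187, 23 bp downstream) and Y40H7A.t2 (rank 195, 29 bp upstream).

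The regions at rpr-1 and mrpr-1 were wider than most regions at genes of both classes, and that at yrn-1 was wider than most at tRNA genes. The median width of all IDR peaks was 464 bp. At snRNA genes the median width was 633 bp, with 14 of 75 regions wider than at rpr-1, 16 wider than at mrpr-1 and 39 wider than at yrn-1. At tRNA genes it was 379 bp, with 16 of 393 wider than at rpr-1, 16 than at mrpr-1 and 53 than at yrn-1. Width and signal come from the same region call, so the width is not a separate measurement of strength.

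**Figure D3:**
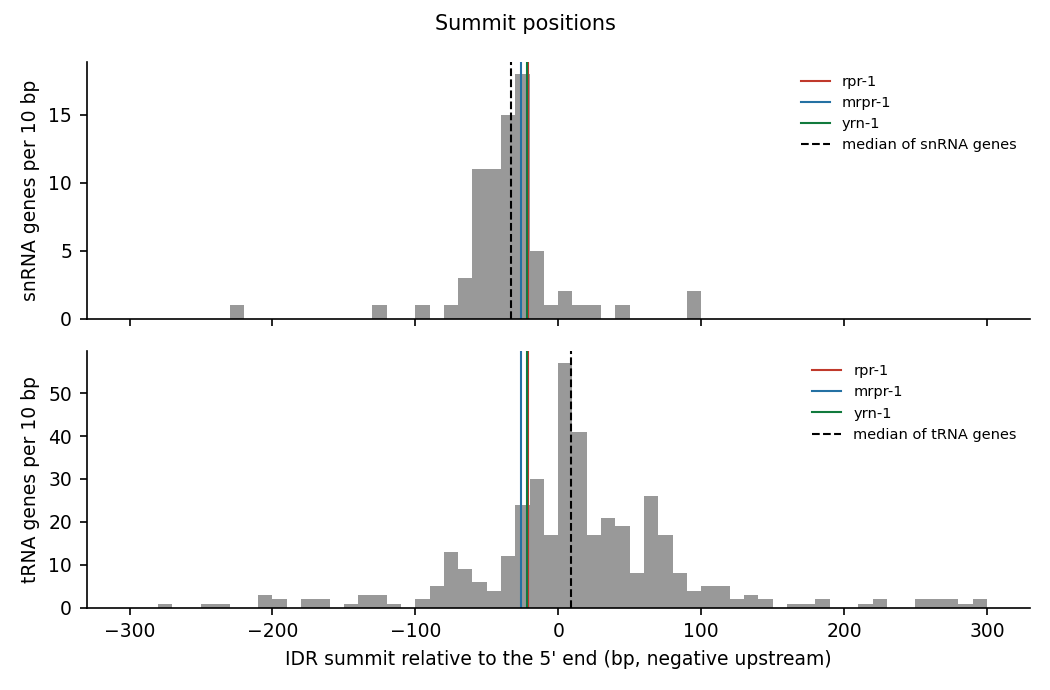
IDR summit positions relative to the 5' end, in bins of 10 bp with negative values upstream, for 75 snRNA genes (top) and 393 tRNA genes (bottom). Coloured lines mark the 3 genes and the dashed line the class median. The 3 genes lie 21 to 26 bp upstream, nearer the gene than the snRNA median at -33 bp, while the tRNA median is 9 bp downstream.

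The IDR summits of the 3 genes lay upstream, as at most snRNA genes, but nearer the gene than the median snRNA summit. The 3 IDR summits lay 21, 26 and 22 bp upstream of rpr-1, mrpr-1 and yrn-1. At snRNA genes the median was -33 bp (quartiles -49.5 and -24.5, negative upstream), and 68 of 75 summits (90.7%) were upstream. The IDR summits of rpr-1 and yrn-1 were nearer the gene than the quartile of -24.5 bp. For tRNA genes the median summit fell 9 bp into the gene (quartiles -19 and 48), with 36.1% of summits before the 5' end. The range from -26 to -21 bp that holds the 3 genes held 10 of 75 snRNA summits (13.3%), 12 of 393 tRNA summits (3.05%) and 1.57% of the 5421 other genes with an IDR summit. The 11 bp between the yrn-1 summits of the replicates is larger than the differences between the 3 genes in the pooled list.

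**Figure D4:**
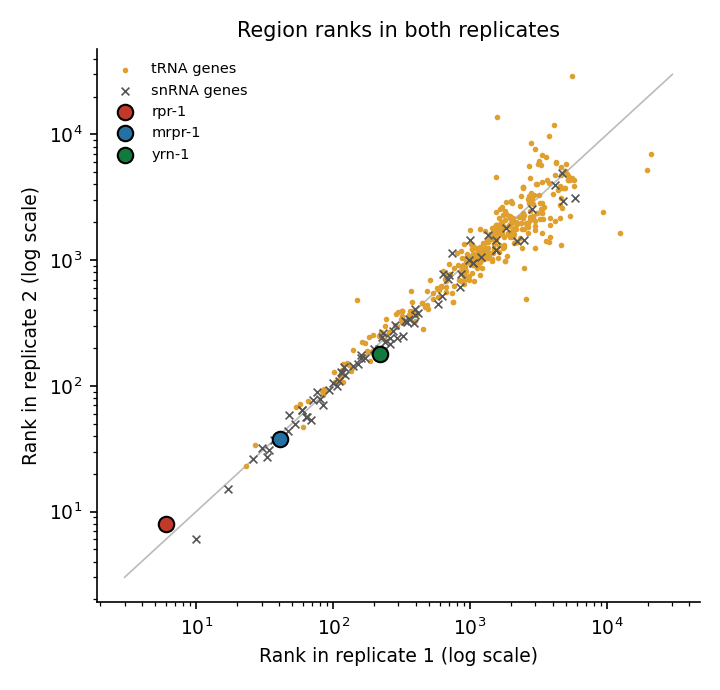
Rank of the nearest region in replicate 1 against replicate 2, on log scales, for the 3 genes (circles), snRNA genes (crosses) and tRNA genes (dots) with an IDR peak. The grey line marks equal ranks. The 3 genes lie close to the line, at 6 and 8, 41 and 38, and 221 and 178.

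The replicates ranked mrpr-1 about as alike as the median snRNA gene, and rpr-1 and yrn-1 less alike than most snRNA genes. The higher rank divided by the lower was 1.33 at rpr-1, 1.08 at mrpr-1 and 1.24 at yrn-1. Across 75 snRNA genes the median ratio was 1.09 (quartiles 1.05 and 1.21), and 13 of them had a ratio above that of yrn-1. Across 378 tRNA genes with a region in both replicates the median was 1.20 (quartiles 1.08 and 1.36), and 156 had a ratio above that of yrn-1. At low ranks 1 place makes a large ratio, as at rpr-1, where 6 and 8 are 2 places apart. Summits of the replicates differed by a median of 8 bp at snRNA genes and 17 bp at tRNA genes, against 4, 1 and 11 bp at the 3 genes. By position, the replicates thus agreed more closely at rpr-1 and mrpr-1 than at the median gene of either class. The classes held only genes with an IDR peak and were not matched for rank, with median IDR ranks of 245 for snRNA and 1380 for tRNA genes.

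The genes closest to the 3 in rank over both replicates were of several kinds. Likeness was the sum over the 2 replicates of the difference in log10 rank, among 7872 other genes with a region in both lists, 1 gene for each region. Closest to rpr-1 were the non-coding gene Y37E3.29 (ranks 5 and 9), the snoRNA gene F59C6.15 (7 and 12) and the spliced leader gene sls-2.8 (9 and 10). Closest to mrpr-1 were the non-coding gene C17G10.14 (40 and 39) and the snoRNA genes T08B6.64 (39 and 41) and M03D4.78 (38 and 40). Closest to yrn-1 were the protein-coding genes hrpu-1 (219 and 196) and Y71G12B.23 (199 and 182) and the snRNA gene F56H6.14 (215 and 197). These values describe rank alone, over 2 samples. Summit position was not part of the likeness. In replicate 1 it ran from -211 bp at C17G10.14 to 264 bp at Y71G12B.23, relative to the 5' end.

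The 3 upstream sequences shared a spaced pair of short matches. The first base of the TGTCNG match lay 55 bp before rpr-1, 57 bp before mrpr-1 and 55 bp before yrn-1. At rpr-1 and yrn-1 the letters were TGTCGG. At mrpr-1 the match differed from TGTCGG by G5T, counted from 1 at the motif's 5′ end, and TGTCGG itself did not occur in its 100 bp on either strand. The following TATATA began 30 bp before rpr-1, 34 bp before mrpr-1 and 30 bp before yrn-1, so the first bases of the pair were 25, 23 and 25 bp apart. At mrpr-1 a second TATATA and a TATAAA overlapped the first, and yrn-1 had a further TATATA 83 bp upstream. At rpr-1 the opposite strand also carried TGTCCG, 44 bp upstream. TGTCGG was known from earlier results of these data. TGTCNG and TATATA were chosen after these sequences were seen, so their presence at the 3 genes is a description.

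The IDR summit lay just after the TATATA match at all 3 genes. It was 9 bp from the first base of that match at rpr-1, 8 bp at mrpr-1 and 8 bp at yrn-1, and 34, 31 and 33 bp from the first base of TGTCNG. The base composition around the pair differed widely, with 69% G and C in the 100 bp before rpr-1, 48% before mrpr-1 and 34% before yrn-1. The summits of the replicates differed by up to 11 bp, which is more than the distance to TATATA.

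The pair at this spacing was found at 0.0576% of other nuclear genes. The spacing was read from the 3 genes, and a pair cannot be more common than either match alone. On the strand of the gene, TGTCNG occurred in the 100 bp before 5.37% of 46883 other nuclear genes, 53.5% of 99 snRNA genes and 10.3% of 612 nuclear tRNA genes. On either strand the shares were 9.71%, 54.5% and 18.3%. TGTCGG on either strand was found at 1.98% of other nuclear genes, 30.3% of snRNA genes and 3.1% of nuclear tRNA genes. TATATA, which reads the same on both strands, was found at 5.06%, 20.2% and 2.12%. TATAAA, on either strand, was found at 17.5%, 19.2% and 10.3%, and of the 3 genes at mrpr-1 alone. The pair with 23 to 25 bp between first bases occurred at 27 other nuclear genes (0.0576%), among them 12 snRNA and 0 nuclear tRNA genes.

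Among snRNA genes, TGTCNG was placed as at rpr-1, mrpr-1 and yrn-1 in those that had TATATA and exactly 1 TGTCNG match. Of 99 snRNA genes, 18 had TATATA starting 20 to 40 bp upstream, and all 18 of these had an IDR peak, against 57 of 81 (70.4%) without it. Of the 18, 12 had exactly 1 TGTCNG match, and in all 12 it began 55 to 57 bp upstream, the range of the 3 genes. Of the snRNA genes with a peak and without TATATA, 34 had 1 match, which began in that range at 1 gene and 47 bp upstream at 18. The median IDR rank ran the other way, at 313 with TATATA and 235 without. The median region was 590 bp wide with TATATA and 636 bp without. The median summit was at -26.5 bp with TATATA and -34 bp without. This split used sequence only, was chosen after the data were seen, and was not tested.

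The 3' ends of the 3 genes carried a run of T, the usual stop signal of RNA polymerase III. Within the last 10 bases and the 10 that follow, the run held 5 T at rpr-1, 4 at mrpr-1 and 4 at yrn-1. TTTT in this window was found at 94% of nuclear tRNA genes, 27.3% of snRNA genes and 34.2% of all other nuclear genes. It was present at 17 of the 18 snRNA genes with TATATA and at 10 of the 81 without. The last 30 bases of mrpr-1 with the 10 after them (chrII:7200389-7200428, plus strand) and the whole of yrn-1 with 10 bases after it (chrIV:7499508-7499622, plus strand) show the run in capitals. In the yrn-1 line a match to GTTCNANNC is also in capitals. A further TTTT inside yrn-1, before that match and outside the window, is left in lower case.
mrpr-1 3' end: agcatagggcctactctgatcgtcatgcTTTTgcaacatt
yrn-1 gene: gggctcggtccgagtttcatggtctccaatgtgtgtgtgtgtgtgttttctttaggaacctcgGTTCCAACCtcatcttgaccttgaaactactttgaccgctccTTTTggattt

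GTTCNANNC, the core of the B box that lies inside tRNA genes, was searched on the strand of the gene. It matched within 95.9% of nuclear tRNA genes, 1 of 99 snRNA genes and 2.72% of genes of the non-coding RNA biotype. Over all 46883 other nuclear genes the share was 20.8%, and over protein-coding genes it was 40.6%. Of the 3 genes it matched in yrn-1 alone, where it began at base 64 of the gene. No match says only that these letters are not in the gene.

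The genes for the protein partners of these RNAs had weak regions or none. The list held 7 genes: popl-1, popl-4, popl-5 and popl-7, named for Pop-like subunits of RNase P and RNase MRP, Y37E11AM.4 and Y62E10A.24, whose RefSeq product names are of RNase P, and rop-1, the Ro protein that binds Y RNA. An IDR summit lay within 300 bp of 2 of the 7, against 6.36% of 19985 protein-coding genes. Both were the overlapping genes popl-7 and Y62E10A.24 (chromosome IV, 13370689 to 13371565 and 13370710 to 13372000, plus strand). They shared 1 peak of rank 4543 and signal 89.8, 153 bp upstream of popl-7, near the end of a list whose lowest signal was 87.3. The same summit was also within 300 bp of rplp-2.2, a ribosomal protein gene. RefSeq gives popl-7 itself a product name of another protein family, so the symbol and the product name differ. With a window of 150 bp, 0 of the 7 genes had an IDR summit.

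The other 5 genes of the list were outside the IDR peaks. Pooled candidates lay at Y37E11AM.4 (rank 8519, signal 48.6, 135 bp upstream) and popl-4 (rank 15902, signal 23.5, 265 bp upstream). At popl-1, popl-5 and rop-1 no candidate summit of any list was within 300 bp of the 5' end. The nearest pooled summit was 486 bp away at rop-1, 5695 bp at popl-1 and 17253 bp at popl-5. The RNA genes of RNase P, RNase MRP and the Y RNA thus held signals of 22917, 9292 and 1748 in the list in which the highest value among their protein partners was 89.8.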

How the data were processed

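Peak lists of SNPC-4 ChIP-seq from 2 biological replicates of whole animals, 1 group per the labels, were used in the ce11 build. Per the text deposited with the samples, the authors derived them from alignments of the replicates and a control. The aligner and the peak caller were not given in the sources used here. The signal of a region is the authors' deposited value. The deposited −log10 q-value is the same in all IDR peaks and was not used for ranking. Lists in ce10 were not used.

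Regions were ranked by signal within a list. A summit is the region's start plus the deposited offset, counted from 1. For each gene the nearest summit within 300 bp of the 5' end was taken. Genes came from Ensembl release 115 of WBcel235, the assembly of ce11. Symbols were those of RefSeq (99.9% of 46926 genes), and 30 spliced leader genes were kept out of the snRNA class. A search of the gene descriptions for stem-bulge RNA or Y RNA matched 0 further genes. Non-coding genes such as Y37E3.29 and F55G1.20 are described only as unclassified, so the search could not find stem-bulge or Y RNA genes among these. No test was run. Assignment was tried on simulated data with 1 gene and 1 region at a time, and the motif search with planted TGTCGG only. The choice among several summits and the search for the other motifs and the pair were not tried this way.

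The members and lists were chosen with earlier results of these data known. Named were the 3 genes, their neighbours, the 2 highest snRNA and tRNA genes, those ranked next to each of the 3, the 3 most alike in rank and the protein partners. Alternatives were windows of 150 and 500 bp, each replicate alone, merged regions, the strongest summit, and 200 bp for the motif. The work used pandas 2.3.3, matplotlib 3.10.9, scipy 1.17.1 and numpy 2.4.6 under Python 3.11.15. All motifs other than TGTCGG were added after the data were seen.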

Additional observations from a re-analysis of the deposited data

How the results depend on the processing

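With IDR summits 21 to 26 bp before the 3 genes, windows of 150 and 500 bp could not lose them, so these windows are no check. The 3 genes kept a region among the 4675 strongest of each replicate alone, which was added after the data were seen. With 1 replicate left out, the rank of rpr-1 was 6 to 8, and its signal over the list's median was 121 to 135, against 139 pooled. For mrpr-1 this signal was 46.4 to 57.6 against 56.4 pooled, and for yrn-1 8.73 to 10.8 against 10.6. The summit was at -25 to -21 bp for rpr-1, -26 to -25 bp for mrpr-1 and -33 to -22 bp for yrn-1. Merging overlapping regions left ranks of 6 and 40 for rpr-1 and mrpr-1 and gave 176 for yrn-1, and the strongest summit in the window was the nearest one for all 3. The list of protein partners fell from 2 genes with an IDR peak to 0 with 150 bp, and was 0 to 2 with 1 replicate left out (0 without replicate 1). The median tRNA summit moved from 9 to 10 bp with 500 bp. The counts of snRNA and tRNA genes stayed within 1.5 times under every alternative run, also without the smy genes, which was added after the data were seen. No paired analysis was possible because there is 1 group and no comparison between groups. Depth is unknown, so no counting interval can be set on a signal.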

Other observations

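The pair of TGTCNG and TATATA with 23 to 25 bp between first bases was taken from rpr-1, mrpr-1 and yrn-1. It occurred before 27 other nuclear genes, and 18 of these (66.7%) had an IDR summit within 300 bp of the 5' end. The same held for 11.6% of all annotated genes and 9.12% of genes of the non-coding RNA biotype. It also held for 75.8% of snRNA genes, the class of 12 of the 18. The median rank of the 18 was 126, and 10 of them ranked within the first 200. Among the 12 snRNA genes 5 did. Of all 75 snRNA genes with an IDR peak, 33 (44.0%) ranked above yrn-1, which was at rank 194. Medians over all snRNA genes and all genes with an IDR summit were 245 and 2803. By class the 18 were 12 of 12 snRNA genes, 4 of 8 genes of the non-coding RNA biotype, 1 of 2 snoRNA genes, 1 of 1 miRNA gene, and 0 of 3 protein-coding and 0 of 1 piRNA genes. The 12 snRNA genes had a median rank of 600.5. The median summit of the 18 was at -26.5 bp. By class it was at -24.5 bp for snRNA genes, -52 bp for the non-coding RNA biotype, -54 bp for the miRNA gene and -19 bp for the snoRNA gene. The 4 genes of the non-coding RNA biotype, named after their values were seen, were W01D2.7 (chromosome II, 14804502 to 14804559, rank 21, signal 15338, summit 46 bp upstream), M163.12 (X, 14477545 to 14477622, rank 77, summit at -58 bp), CD4.18 (V, 5587285 to 5587418, rank 105, summit at -23 bp) and M163.15 (X, 14477196 to 14477267, rank 147, summit at -146 bp). Each was the closest annotated 5' end to its summit. The pair was defined on the 3 genes after their sequences were seen, and no test was made.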
